A study of Mus musculus with 17 samples.

Results

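The thrombospondins, tenascins and other matricellular and adhesive glycoproteins were followed in cultured mouse pancreatic stellate cells. The 10 genes, taken by name after mapping Ensembl gene IDs to mouse symbols, were Thbs1, Thbs2, Thbs3, Tnc, Tnxb, Postn, Tgfbi, Sparc, Spp1 and Fn1. These are 10 of the 35896 gene IDs listed, and all 10 passed the filter on low counts that left 13923 genes. The RNA came from 17 libraries of wild-type C57BL/6J stellate cells, lines PSC4 and PSC5, grown for 4 days in Matrigel, which is a basement membrane extract. The control group had 5 libraries in control medium. The TGF-beta group had 4 libraries in the same medium with TGF-beta at 20 ng/mL. The CM group had 4 libraries in medium conditioned by pancreatic tumour organoids. The neratinib group had 4 libraries in such medium to which neratinib, a drug that blocks ERBB receptor kinases, was added at 300 nM. In the CM and neratinib groups, replicate 1 of each line carries the medium code T8 and replicate 2 the code T6. No group had neratinib without conditioned medium, and the labels do not say how many animals the lines came from.

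Matricellular proteins are secreted into the extracellular matrix, where they bind cells, growth factors, proteases and structural fibres more than they build the scaffold itself. Fibronectin is the adhesive exception, a fibril-forming protein on which other matrix is laid down. Stellate cells are the pancreatic cells that turn into matrix-producing fibroblasts in fibrosis and in pancreatic cancer, and TGF-beta is the classical inducer of that change.

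Values are CPM, counts scaled to a common library total with edgeR's TMM factors. Library totals lay between 22168953 and 29421447 counts, and 3 counts, the limit used for a gene near 0, stood for 0.102 to 0.135 CPM. The labels tie the replicate number to the passage of each line, and nothing says that the cultures were otherwise separate, so p-values measure the spread between these libraries. In the CM and neratinib groups the replicate number also goes with the medium code, so passage and code cannot be told apart there. The summed level of 12 fibroblast and stellate markers lay between 4708 and 21060 CPM over the 17 libraries with none at 0. Des (desmin) had only 15 to 94 counts, and Lum 8 to 598. Col1a1, which is part of this sum, measured 1353 to 2093 CPM in control medium and 5244 to 10485 CPM in TGF-beta. Among 10 macrophage markers, Adgre1 and Tyrobp were at 0 in all 17 libraries, while Cd68 had 34 to 289 counts and Csf1r 9 to 30. On the third principal component of log2 CPM, 3 libraries with the label PSC4 replicate 1, of control (37.0), CM (23.8) and neratinib (1.76), lay above the other PSC4 libraries (-56.8 to -19.8) and at or near the PSC5 range (-3.60 to 36.2). On the second component the neratinib library labelled PSC4 replicate 1 lay at -84.1, below the other neratinib libraries (-46.9 to -17.2). TGF-beta had no library with that line and number. In what follows, effects were estimated with edgeR's quasi-likelihood test over all 17 libraries with the group and the line as terms, and a gene is called where its Benjamini-Hochberg adjusted p over the 13923 genes was under 0.05. The SE given with each log2 fold change is the standard error derived from the F statistic of this test. The comparisons against control share the control libraries, so they are not independent of each other.

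The bases before the start site are shown for Tnc and Spp1, which rose in TGF-beta and in CM, for Tnxb, which fell in TGF-beta, and for Postn, which varied most between libraries. They come from RefSeq on GRCm38.p6, in which 8 of the 10 genes matched. The 250 bases before each start are written 5′ to 3′ on the strand of the gene: Tnc chr4:64047016-64047265 (minus strand), Postn chr3:54360857-54361106, Spp1 chr5:104434861-104435110 and Tnxb chr17:34670285-34670534 (plus strand). Capitals mark matches, on either strand, to the SMAD half-site CAGAC, the AP-1 site TGANTCA, the TEAD site GGAATG and the TATA box TATAAA.
Tnc: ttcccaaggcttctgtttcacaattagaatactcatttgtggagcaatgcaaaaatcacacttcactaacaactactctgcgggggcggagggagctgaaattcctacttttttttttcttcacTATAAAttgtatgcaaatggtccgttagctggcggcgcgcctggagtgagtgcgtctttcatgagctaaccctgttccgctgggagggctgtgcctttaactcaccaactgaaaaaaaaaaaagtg
Postn: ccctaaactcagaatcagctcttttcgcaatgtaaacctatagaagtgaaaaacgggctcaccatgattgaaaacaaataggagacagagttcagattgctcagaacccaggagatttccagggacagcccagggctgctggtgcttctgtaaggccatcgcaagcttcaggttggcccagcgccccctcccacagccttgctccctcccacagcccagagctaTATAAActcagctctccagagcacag
Spp1: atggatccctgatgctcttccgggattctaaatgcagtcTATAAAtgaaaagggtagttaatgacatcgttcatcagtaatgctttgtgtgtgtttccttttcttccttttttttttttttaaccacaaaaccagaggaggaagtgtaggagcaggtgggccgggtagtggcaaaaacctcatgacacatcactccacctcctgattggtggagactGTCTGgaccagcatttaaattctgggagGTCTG
Tnxb: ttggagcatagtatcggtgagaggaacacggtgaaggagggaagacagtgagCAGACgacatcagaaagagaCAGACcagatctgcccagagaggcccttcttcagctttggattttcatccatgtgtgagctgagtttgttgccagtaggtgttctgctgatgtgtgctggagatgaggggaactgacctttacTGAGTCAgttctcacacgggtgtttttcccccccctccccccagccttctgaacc
The TATAAA match of Postn began 26 bases before the start, where a TATA box usually sits. That of Tnc began 126 bases before the start and that of Spp1 211 bases before it. Spp1 also held the SMAD half-site on the other strand, beginning 33 and 5 bases before the start. Tnxb held the half-site 198 and 178 bases before the start and an AP-1 match 55 bases before it. The Sparc window lies 3103 bases from the start in GENCODE and holds up to 210 bases of Sparc exons, and the Tgfbi window holds up to 63 bases of its own exon. Over the 8 windows, these included, CAGAC was found in 5, TATAAA in 4, TGANTCA in 1 and GGAATG in 0. Over all 32851 promoters of the same length the shares were 42.2%, 12.4%, 6.75% and 12.6%. A match describes these letters only, and the data hold no measure of binding.

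The 10 genes together took a larger share of the RNA in TGF-beta than in any other medium. Their summed CPM made up 1.00% to 1.11% of the scaled library total in control medium (median 1.03%) and 2.12% to 2.88% in TGF-beta (median 2.35%). It made up 1.17% to 1.34% in CM (median 1.198%) and 0.757% to 1.10% with neratinib (median 0.901%). The TGF-beta libraries lay above all others, and the neratinib libraries overlapped the control but not the CM range. Most of the sum in TGF-beta came from Fn1 (mean 10450 CPM), Spp1 (5063 CPM) and Sparc (3046 CPM). Not every gene rose there, and Thbs1 (649.6 against 1032 CPM) and Tnxb (1.60 against 24.6 CPM) had lower means than in control medium.

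**Figure D1:**
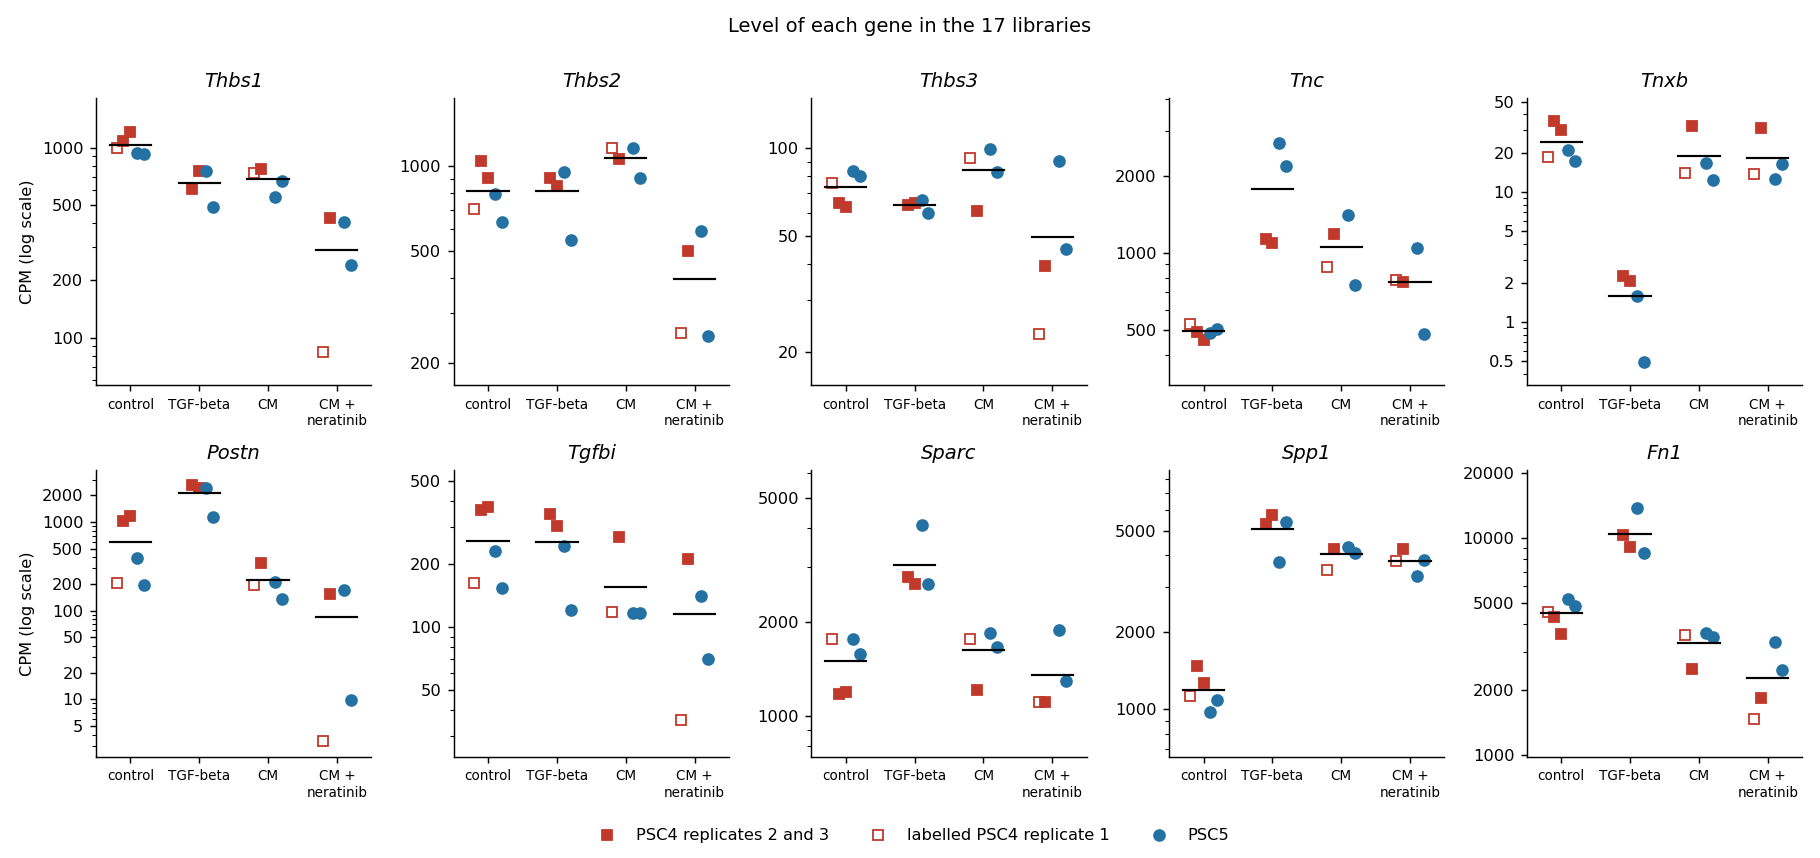
CPM (log axis) of each of the 10 genes in the 17 libraries, by medium. Points are libraries, horizontal lines are group means, squares are PSC4 (open for the libraries labelled replicate 1) and circles are PSC5. Spp1 stands higher in all 12 treated libraries than in any control library, and Tnxb in the TGF-beta libraries is below 3 CPM.

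The thrombospondins are secreted glycoproteins, of which thrombospondin-1 binds CD47, CD36, integrins and heparan sulphate. Thbs1 and Thbs2 form trimers and are known as inhibitors of angiogenesis, and thrombospondin-1 is also an activator of latent TGF-beta. Thbs3 belongs to the pentameric subgroup and lies within the annotated span of Mtx1, which is on the opposite strand. In these cells Thbs1 stood lower with neratinib than in control medium or CM, Thbs2 was lower there against both as well, and the calls on Thbs3 were weak. None of the 3 was called in TGF-beta or in CM alone against control.

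Values of each group are given below for PSC4 and then for PSC5, in the order of the replicate number. The control group has PSC4 replicates 1, 2 and 3 and PSC5 replicates 1 and 2. The TGF-beta group has PSC4 replicates 2 and 3 and PSC5 replicates 1 and 2. The CM and neratinib groups have PSC4 replicates 1 and 2 and PSC5 replicates 1 and 2.

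Thbs1 (ENSMUSG00000040152, chr2:118111876-118127133 on GRCm38, plus strand) measured 999.97, 1088, 1212, 940.4 and 920.1 CPM in control medium and 607, 749, 752 and 489 CPM in TGF-beta. It measured 735, 774, 549 and 664 CPM in CM and 84.3, 424, 406 and 240.4 CPM with neratinib. Every treated library lay below every control library, and the neratinib libraries also lay below all CM libraries. Against control, Thbs1 was 3.53-fold lower with neratinib (log2 fold change -1.82, SE 0.34, adjusted p 0.000769). Against CM the fall was 2.34-fold (log2 -1.23, SE 0.34, adjusted p 0.0216), and it was not called without the neratinib PSC5 replicate 2 library (log2 -1.16, adjusted p 0.0635) or when only the CM and neratinib libraries were fitted (log2 -1.24, adjusted p 0.135). In TGF-beta the difference was -0.66 (SE 0.32, adjusted p 0.123) and in CM -0.59 (SE 0.32, adjusted p 0.246). After removal of the 3 libraries labelled PSC4 replicate 1 both differences were called, at -0.67 (adjusted p 0.00449) and -0.61 (adjusted p 0.0353).

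Thbs2 (ENSMUSG00000023885, chr17:14665500-14694235, minus strand) measured 705, 1046.5, 908, 795 and 634 CPM in control medium and 909, 850.3, 956 and 546 CPM in TGF-beta. It measured 1157, 1059, 1164 and 905 CPM in CM and 254, 498, 588 and 249.5 CPM with neratinib. The neratinib libraries lay below all control and all CM libraries, whereas the TGF-beta and control ranges overlapped. The fall with neratinib was 2.69-fold against CM (log2 -1.43, SE 0.27, adjusted p 0.00263) and 2.02-fold against control (log2 -1.02, SE 0.25, adjusted p 0.00530). Of the 4 falls called between neratinib and CM, that of Thbs2 was the one called under all 16 alternatives tried. Its difference between TGF-beta and control was 0.01 (95% interval -0.52 to 0.54). With line and number as a block, the difference between CM and TGF-beta was called (log2 0.53, adjusted p 0.0308), which it was not without the block (0.40, adjusted p 0.260).

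Thbs3 (ENSMUSG00000028047, chr3:89215180-89226837, plus strand) was the lowest of the 3, at 76.2, 64.8, 62.8, 83.4 and 80.2 CPM in control medium and 63.7, 64.8, 66.6 and 59.7 CPM in TGF-beta. It measured 92.9, 61.1, 99.0 and 83.1 CPM in CM and 23.03, 39.4, 90.4 and 44.95 CPM with neratinib. With neratinib 3 libraries lay below every control and CM library, and PSC5 replicate 1 lay inside the CM range and above the control range. The call against control (log2 -0.66, SE 0.24, adjusted p 0.0379) held under 6 of 17 alternatives, and that against CM (log2 -0.82, SE 0.25, adjusted p 0.0326) under 9 of 16. The first was lost on leaving out any 1 control or neratinib library but neratinib PSC5 replicate 1 (adjusted p 0.0529 to 0.131). The second was lost without CM PSC4 replicate 1, CM PSC5 replicate 1 or any neratinib library but PSC5 replicate 1 (adjusted p 0.0684 to 0.0991). Without the 3 libraries labelled PSC4 replicate 1 the differences were -0.40 (adjusted p 0.141) and -0.49 (adjusted p 0.153). Mtx1, on the opposite strand, shares 318 exon bases with Thbs3. It had 11921 counts over the 17 libraries against 30758 for Thbs3, and whether the counting used strand is not given in the sources used here.

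Tenascins are large glycoproteins whose expression differs sharply by state of the tissue. Tenascin-C is induced in wounds, fibrosis and tumour stroma and reduces adhesion to fibronectin, while tenascin-X is a protein of resting connective tissue that helps to order collagen fibrils. Here Tnc rose in TGF-beta and in CM, and Tnxb fell in TGF-beta.

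Tnc (ENSMUSG00000028364, chr4:63959785-64047015, minus strand) measured 529, 491, 456, 485 and 505 CPM in control medium and 1128, 1089, 2674 and 2181 CPM in TGF-beta. It measured 881, 1183.5, 1401 and 750.3 CPM in CM and 782, 767, 1041 and 480.1 CPM with neratinib. All TGF-beta and CM libraries lay above the narrow control range, and the neratinib range reached into it through PSC5 replicate 2. The rise in TGF-beta was 3.39-fold (log2 1.76, SE 0.26, adjusted p 0.000104) and the rise in CM was 2.09-fold (log2 1.07, SE 0.26, adjusted p 0.0148). The latter missed the threshold when CM PSC4 replicate 2 (0.94, adjusted p 0.0533) or CM PSC5 replicate 1 (0.96, adjusted p 0.0583) was left out. With neratinib Tnc was 0.61 above control on the log2 scale (SE 0.26, adjusted p 0.0661; 0.81 and adjusted p 0.0153 without neratinib PSC5 replicate 2) and 0.45 below CM (log2 fold change -0.45, 95% interval -1.03 to 0.13, adjusted p 0.255).

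The TGF-beta libraries of PSC5 had more Tnc than those of PSC4. The log2 ratio of mean CPM in TGF-beta to control was 1.17 in PSC4 and 2.29 in PSC5. The test of this difference between the lines gave 1.12 (SE 0.44, unadjusted p 0.0261, adjusted p 1), so it was not called. The Tnc difference between CM and TGF-beta was -0.70 (SE 0.27, adjusted p 0.0606) and with line and number as a block it was called (-0.82, adjusted p 0.0212), as it was without TGF-beta PSC4 replicate 2 (-0.85, adjusted p 0.0392) or replicate 3 (-0.86, adjusted p 0.0344).

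Tnxb (ENSMUSG00000033327, chr17:34670535-34719815, plus strand) was the lowest of the 10 genes per exon length. It measured 18.7, 35.4, 30.2, 21.3 and 17.4 CPM in control medium and 2.25, 2.06, 1.59 and 0.488 CPM in TGF-beta. It measured 13.998, 32.4, 16.8 and 12.5 CPM in CM and 13.8, 31.3, 12.6 and 16.4 CPM with neratinib. The TGF-beta libraries lay below all others, and the other 3 groups overlapped. The fall in TGF-beta was 15.1-fold (log2 -3.91, SE 0.37, adjusted p 1.48e-06), and in CM Tnxb was 12.0-fold above TGF-beta (log2 3.59, SE 0.37, adjusted p 4.17e-06). Between neratinib and CM the difference was -0.03 (95% interval -0.70 to 0.64).

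Periostin (Postn) and Tgfbi are a related pair of fasciclin-domain proteins that bind integrins. Periostin promotes collagen cross-linking and is a marker of activated fibroblasts, and Tgfbi was named for its induction by TGF-beta. In these cells Postn varied most between libraries of 1 group, and Tgfbi was not called between TGF-beta and control.

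Postn (ENSMUSG00000027750, chr3:54361109-54391037, plus strand) measured 204, 1021, 1174.5, 396 and 196 CPM in control medium and 2581, 2418, 2410.4 and 1126 CPM in TGF-beta. It measured 192, 349, 210.05 and 135 CPM in CM and 3.36, 156, 171 and 9.81 CPM with neratinib. In control medium PSC4 replicates 2 and 3 were high, while the library labelled PSC4 replicate 1 stood at the PSC5 level. With neratinib 2 libraries, PSC4 replicate 1 and PSC5 replicate 2, were below 10 CPM and the other 2 above 150 CPM, and all 4 lay below the control range. In TGF-beta every library was at least 2.06 times the control of the same line and number, but the PSC5 replicate 2 library was below the highest control.

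The fitted difference of Postn between TGF-beta and control was 3.95-fold (log2 1.98, SE 0.84, adjusted p 0.0723) and missed the threshold. It was called with line and number as a block (1.85, adjusted p 0.0250) and without the 3 libraries labelled PSC4 replicate 1 (1.85, adjusted p 0.0247). With neratinib Postn fell 6.05-fold against control (log2 -2.60, SE 0.91, adjusted p 0.0323), and the call was lost when control PSC4 replicate 2, control PSC4 replicate 3, control PSC5 replicate 1 or neratinib PSC5 replicate 2 was left out (adjusted p 0.0535 to 0.0657) or when only the groups compared were fitted (-2.57, adjusted p 0.123). Leaving out neratinib PSC5 replicate 1 moved the difference to -3.61 (adjusted p 0.00822). In the 2 neratinib libraries with Postn below 10 CPM, PSC4 replicate 1 and PSC5 replicate 2, the summed level of 16 epithelial markers was the lowest (41.5 CPM) and the highest (366 CPM) of the 17 libraries. Against CM the neratinib difference was -1.29 (SE 0.88, adjusted p 0.323), and with the block it was -2.21 (adjusted p 0.0316). Postn was 9.75-fold lower in CM than in TGF-beta (log2 -3.29, SE 0.94, adjusted p 0.0132), with no overlap.

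Tgfbi (ENSMUSG00000035493, chr13:56609523-56639562, plus strand) measured 162, 362, 376, 232 and 154 CPM in control medium and 348, 304.5, 245 and 121 CPM in TGF-beta. It measured 119, 269, 117 and 117 CPM in CM and 36.0, 212, 141 and 70.5 CPM with neratinib. The groups overlapped in every comparison, and in each medium the highest value was that of a PSC4 library other than replicate 1. In TGF-beta the difference from control was 0.03 (SE 0.42, 95% interval -0.87 to 0.92, adjusted p 0.970). With neratinib it was -1.06 (SE 0.43, adjusted p 0.0600). That difference was called with line and number as a block (-1.15, adjusted p 0.00136), without any 1 of control PSC4 replicate 1, neratinib PSC4 replicate 2 and neratinib PSC5 replicate 1 (-1.41 to -1.21, adjusted p 0.0328 to 0.0384), and without the 3 libraries labelled PSC4 replicate 1 (-0.84, adjusted p 0.0192).

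Sparc, or osteonectin, binds collagen and calcium and takes part in collagen assembly, and fibronectin is the ligand of the integrin alpha5 beta1 around which adhesions form. Both rose in TGF-beta. Fn1 fell with neratinib against control, and Sparc did not pass the test there.

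Sparc (ENSMUSG00000018593, chr11:55394500-55423183, minus strand) measured 1763, 1174, 1191, 1764 and 1576 CPM in control medium and 2778, 2653, 4102 and 2650.0 CPM in TGF-beta. It measured 1764, 1207.5, 1845 and 1658 CPM in CM and 1109, 1106, 1877 and 1294 CPM with neratinib. The TGF-beta libraries lay above all others and the other 3 groups overlapped. The rise in TGF-beta was 1.99-fold (log2 0.99, SE 0.16, adjusted p 0.000217). In CM, each library was between 1.00 and 1.05 times the control of the same line and number, and the fitted difference was 0.08 (95% interval -0.26 to 0.43). Between CM and TGF-beta Sparc differed by 1.88-fold (log2 -0.91, SE 0.17, adjusted p 0.000846).

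Fn1 (ENSMUSG00000026193, chr1:71585520-71653200, minus strand) had the highest CPM of the 10 genes in control medium and TGF-beta. It measured 4569, 4318, 3598, 5263 and 4873 CPM in control medium and 10325, 9087.5, 13795 and 8597 CPM in TGF-beta. It measured 3591, 2479.6, 3647 and 3485 CPM in CM and 1469.6, 1832, 3331.5 and 2460.1 CPM with neratinib. The TGF-beta libraries lay above all others, the neratinib libraries lay below all control libraries, and the CM range touched the lower end of the control range. Fn1 rose 2.26-fold in TGF-beta (log2 1.18, SE 0.17, adjusted p 8.00e-05) and fell 2.09-fold with neratinib against control (log2 -1.06, SE 0.18, adjusted p 0.000329).

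In CM alone Fn1 was 0.49 lower than control (log2 fold change -0.49, SE 0.17, adjusted p 0.0713). It was called there with line and number as a block (-0.51, adjusted p 0.0418), without CM PSC4 replicate 1 (-0.63, adjusted p 0.0435) and without the 3 libraries labelled PSC4 replicate 1 (-0.57, adjusted p 0.0353). Against CM Fn1 was 1.49-fold lower with neratinib (log2 -0.58, SE 0.18, adjusted p 0.0366). This call held under 8 of 16 alternatives. It was lost on leaving out any 1 CM or neratinib library but CM PSC4 replicate 2 and neratinib PSC5 replicate 1 (adjusted p 0.0541 to 0.119), and without the 3 libraries labelled PSC4 replicate 1 the difference was -0.34 (adjusted p 0.215). In CM Fn1 was 3.17-fold lower than in TGF-beta (log2 -1.66, SE 0.18, adjusted p 8.33e-06).

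Osteopontin, the product of Spp1, is a secreted phosphoprotein that binds integrins and CD44 and is made by macrophages, by tumour cells and by fibroblasts. Spp1 was the one gene of the 10 called higher against control in TGF-beta, in CM and in CM with neratinib.

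Spp1 (ENSMUSG00000029304, chr5:104435118-104441050, plus strand) measured 1128, 1478, 1263, 975 and 1084 CPM in control medium and 5296, 5765.5, 3781 and 5409 CPM in TGF-beta. It measured 3501, 4246, 4314 and 4091 CPM in CM and 3797, 4251, 3331 and 3827 CPM with neratinib. The highest control library lay below the lowest treated library. The rise was 4.33-fold in TGF-beta (log2 2.11, SE 0.13, adjusted p 2.20e-08), 3.48-fold in CM (log2 1.80, SE 0.13, adjusted p 2.41e-06) and 3.25-fold with neratinib (log2 1.70, SE 0.13, adjusted p 8.64e-07). Between neratinib and CM the difference was -0.10 (95% interval -0.38 to 0.19, adjusted p 0.653), and libraries of the same line and number had 0.772 to 1.08 times the CM value. Between CM and TGF-beta it was -0.32 (SE 0.13, adjusted p 0.0772), and without TGF-beta PSC5 replicate 1 it was -0.42 (adjusted p 0.0191).

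Markers of other cells that make osteopontin were read beside these values. Of 16 epithelial markers 15 were tested. In CM against control 9 were called higher and 1 lower (median log2 fold change 4.77), where 7.05% and 7.14% of all genes were. With neratinib against control 12 were called higher and 1 lower (median 4.81), where 22.2% and 20.9% of all genes were. In TGF-beta 1 was called in each direction, where 19.7% and 20.5% of all genes were. The summed level of the 16 markers was 76.98 to 94.98 CPM in control medium, 85.9 to 143 CPM in TGF-beta, 70.1 to 229 CPM in CM and 41.5 to 366 CPM with neratinib. Most of the control sum was Sox9 (58.6 to 69.6 CPM), which stood at 36.4 to 49.3 CPM in CM. Without Sox9, a choice made after its values were seen, the sum was 18.4 to 28.9 CPM in control medium and 16.9 to 22.8 CPM in TGF-beta. In CM it was then 23.8 and 47.7 CPM in PSC4 replicate 1 and PSC5 replicate 1, which carry the medium code T8, and 190.0 and 157 CPM in PSC4 replicate 2 and PSC5 replicate 2, which carry T6. With neratinib the sum without Sox9 was 12.3 and 54.95 CPM under T8, and 152 and 335 CPM under T6, PSC4 first. The labels do not say what the codes mean.

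Krt8, a keratin of simple epithelia, had 0 to 2 counts in the control libraries and 5 to 25 (0.181 to 1.02 CPM) in TGF-beta. In CM it measured 0.408, 43.5, 5.62 and 39.3 CPM, with Spp1 at 3501, 4246, 4314 and 4091 CPM in the same order. With neratinib Krt8 had 0 counts in PSC4 replicate 1, where Spp1 was 3797 CPM, and 37.8, 9.47 and 94.02 CPM in the other libraries. Krt8 thus stood above the TGF-beta range in all CM and neratinib libraries but those labelled PSC4 replicate 1. The part of epithelial RNA in the results on CM and neratinib was not tested. The summed level of 10 macrophage markers was 14.3 to 17.8 CPM in control medium, 7.91 to 9.05 in TGF-beta, 27.1 to 53.2 in CM and 35.9 to 68.2 with neratinib. Most of it was Cd14, with Ptprc at no more than 1 count and Adgre1 and Tyrobp at 0. Cd68 had 34 to 73 counts in the control, TGF-beta and CM libraries and 44 to 289 (1.83 to 12.3 CPM) with neratinib. Csf1r had 9 to 30 counts over all libraries, Fcer1g at most 42, and Lyz2, Itgam and Cx3cr1 at most 9. In bulk libraries such as these, fewer cells of a type and less RNA per cell cannot be told apart.

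**Figure D2:**
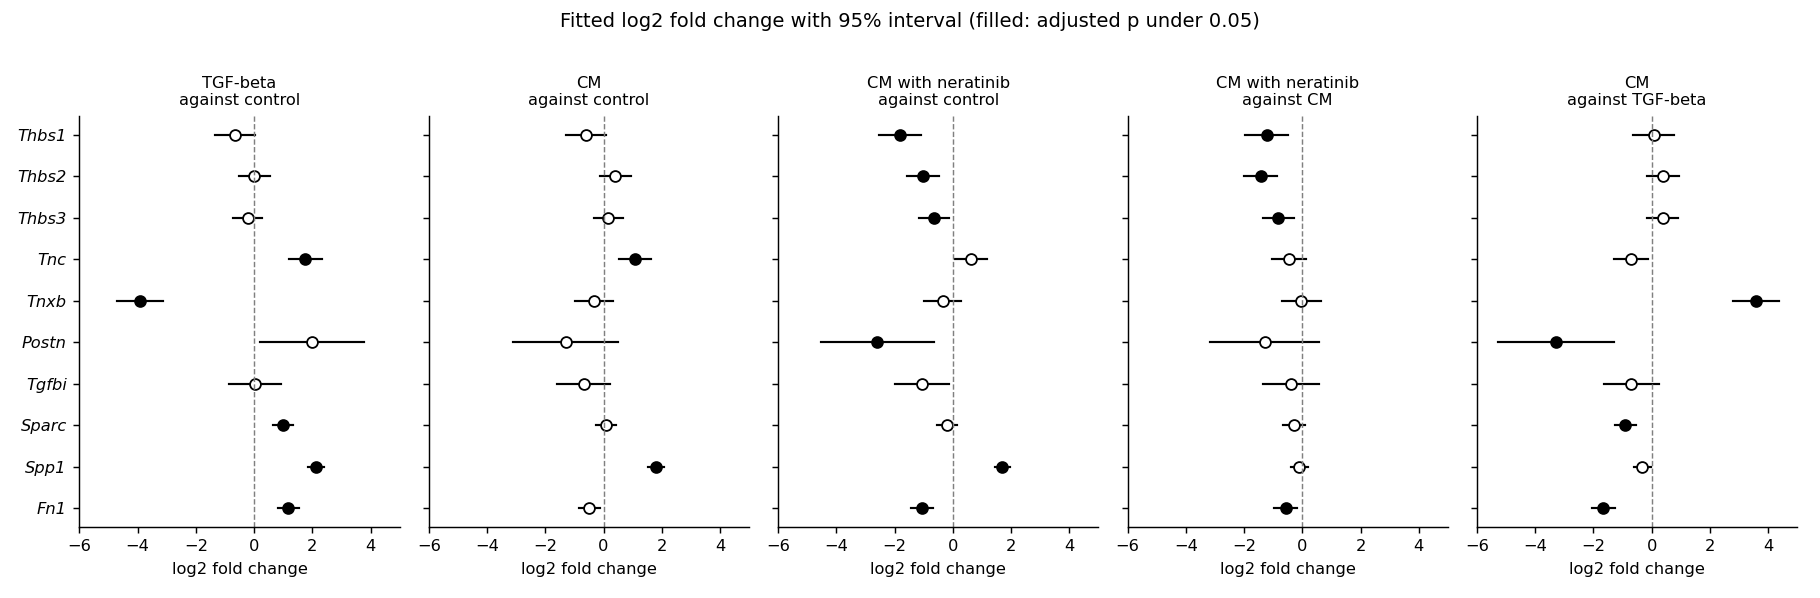
Fitted log2 fold change of each gene in the 5 comparisons, with its 95% interval (edgeR, all 17 libraries). Filled points had an adjusted p under 0.05. The intervals of Spp1 lie above 0 against control in all 3 media, and that of Tnxb lies below 0 in TGF-beta only.

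Counted by comparison, 4 of the 10 genes were called higher in TGF-beta than in control (Tnc, Sparc, Spp1 and Fn1) and 1 was called lower (Tnxb). This compares with 40.2% of all genes tested, 19.7% called higher and 20.5% called lower. For CM against control, 2 were called higher (Tnc and Spp1) and 0 lower, where 14.2% of all genes were called, 7.05% higher and 7.14% lower. With neratinib against control 1 was called higher (Spp1) and 5 lower (Thbs1, Thbs2, Thbs3, Postn and Fn1), where 43.1% of all genes were called, 22.2% higher and 20.9% lower. With neratinib against CM 4 were called lower (Thbs1, Thbs2, Thbs3 and Fn1) and 0 higher, where 20.5% of all genes were called, 10.8% higher and 9.63% lower. For CM against TGF-beta, 1 was called higher (Tnxb) and 3 lower (Postn, Sparc and Fn1), where 35.3% of all genes were called, 17.8% higher and 17.5% lower. The median log2 fold change of the 10 genes was 0.51, -0.12, -0.84, -0.51 and -0.51 in these 5 comparisons in turn. That of all genes tested lay between -0.02 and 0.02.

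After removal of the 3 libraries labelled PSC4 replicate 1, 7, 4, 6, 2 and 4 of the 10 genes were called in the same order, where 49.4%, 18.1%, 40.3%, 14.2% and 41.6% of all genes were called. The neratinib and CM libraries were also compared within pairs of the same line and number, of which there were 4. The ratio of CPM with neratinib to CPM without it was below 1 in all 4 pairs for Thbs1 (0.115 to 0.739), Thbs2 (0.220 to 0.505), Thbs3 (0.248 to 0.913), Tnc (0.640 to 0.888), Postn (0.0175 to 0.814) and Fn1 (0.409 to 0.913). It was below 1 in 3 of 4 pairs for Tnxb, Tgfbi and Sparc, and in 2 of 4 for Spp1. The share of all genes with a ratio below 1 in all 4 pairs was not determined. Tnc and Postn were not called in this comparison. Thbs2 had the narrowest span of the 3 thrombospondins and Postn the widest of all 10 genes.

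**Figure D3:**
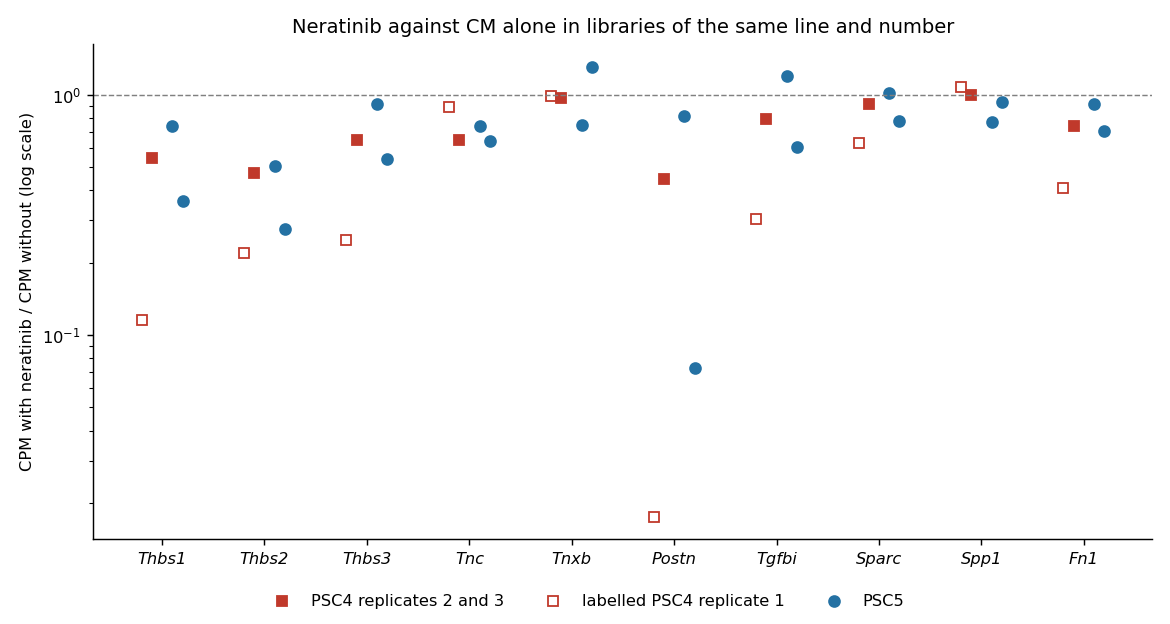
Ratio of CPM with neratinib to CPM in CM alone (log axis) in the 4 pairs of libraries of the same line and number. Open squares are the pair labelled PSC4 replicate 1, and the dashed line marks equal values. All 4 points of Thbs2 lie between 0.220 and 0.505, and those of Postn run from 0.0175 to 0.814.

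Per kilobase of annotated exon, Spp1 led in each medium and Tnxb came last. In control medium the mean was 719 ± 117 CPM per kb for Spp1 (SD, n = 5), then 394 for Sparc and 387 for Fn1, whose ranges overlapped. Thbs1 followed at 170.0 CPM per kb, and then came Thbs2 (117), Postn (68.8), Tgfbi (68.2) and Tnc (63.5), each overlapping the next. Thbs3 (15.2) and Tnxb (2.02 CPM per kb) stood apart at the bottom. In TGF-beta Spp1 reached 3072 CPM per kb, Fn1 894 and Sparc 804, and Tnc (227.5) stood above the ranges of the thrombospondins. Postn (245) had a range that overlapped those of Tnc and Thbs2. In CM the order was Spp1 (2450.0 CPM per kb), Sparc (427) and Fn1 (282.5), then Thbs2 (153), Tnc (136) and Thbs1 (112), which overlapped in turn. With neratinib, below Spp1 (2307) and Sparc (355.5), the ranges of all neighbours from Fn1 (195) to Tnxb (1.52 CPM per kb) overlapped.

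**Figure D4:**
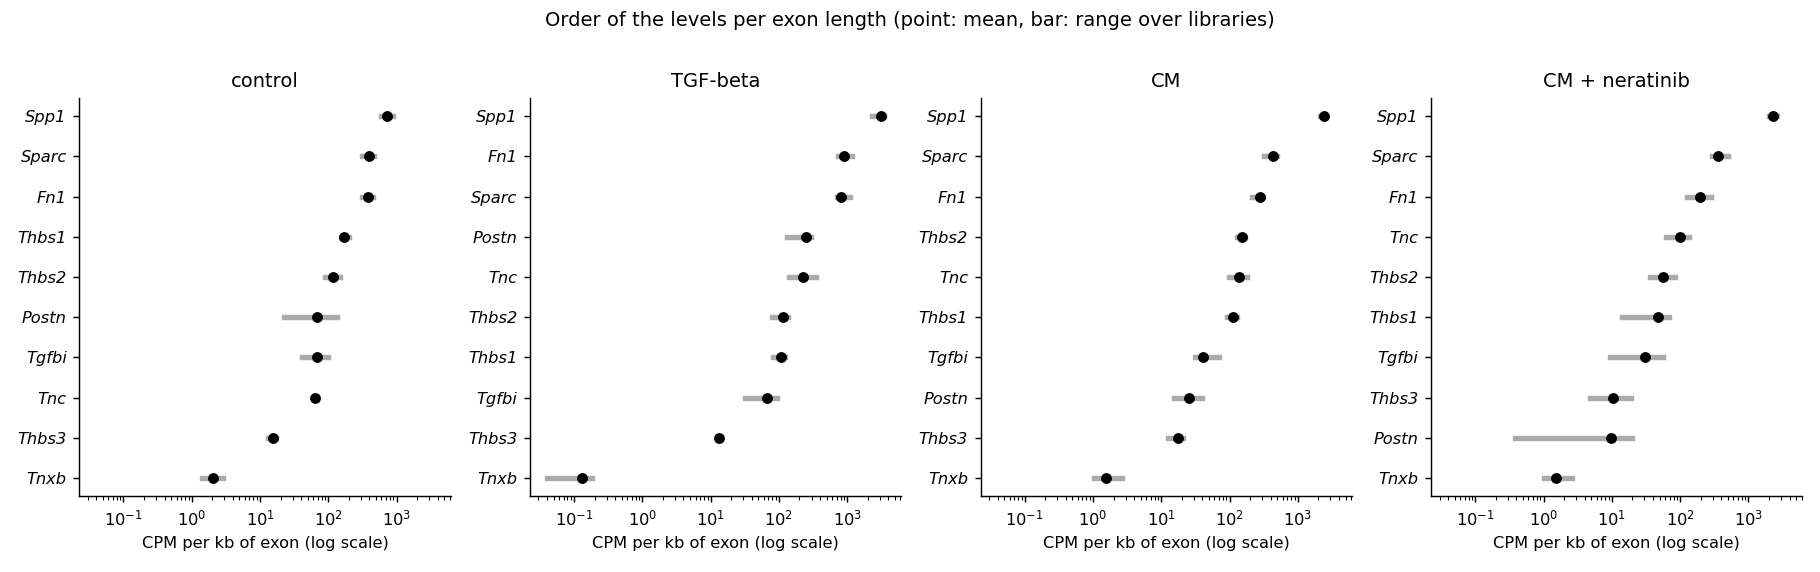
The 10 genes in the order of their mean CPM per kilobase of exon (log axis) in each medium; points are means and bars the range over libraries. Spp1 is at the top and Tnxb at the bottom of each panel, and the mean of Postn stands above those of Thbs1 and Thbs2 in TGF-beta only.

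No gene of the 10 was called between the lines in the fit over all libraries. Between PSC5 and PSC4, 0 of the 10 genes were called with edgeR, where 6.97% of all genes were called, 2.18% higher and 4.78% lower. An unadjusted p under 0.05 was found in this edgeR test for 4 of the 10 genes and for 4079 of the 13923 genes tested. DESeq2 called 3 of the 10 and 15.5% of all genes. Without the 3 libraries labelled PSC4 replicate 1, edgeR called 5 of the 10 and 42.6% of all genes. These were Tnxb (-0.99, adjusted p 0.000310), Tgfbi (-0.97, adjusted p 0.000822) and Spp1 (-0.26, adjusted p 0.0379), lower in PSC5, and Sparc (0.46, adjusted p 0.00469) and Fn1 (0.40, adjusted p 0.0167), higher in PSC5. The test of whether an effect differed between the lines called 0 of the 10 genes and 0 genes in all with edgeR for TGF-beta, for CM and for neratinib against CM. At an unadjusted p under 0.05 it found 1, 0 and 0 of the 10 genes, and 601, 43 and 237 genes in all.

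Across the 17 libraries the 10 genes did not move as 1 block. Pearson's r of log2 CPM was 0.899 between Sparc and Fn1, 0.871 between Postn and Tgfbi and 0.808 between Thbs1 and Thbs2. The lowest was -0.853 between Tnxb and Sparc. These values describe libraries that share media and lines. Among 9771 other genes with a mean of at least 10 CPM, the closest to Fn1 were the fibrillar collagens Col5a1 (r = 0.981) and Col11a1 (0.977). The closest to Thbs1 were Senp7 (0.983) and Hdgfl3 (0.976), to Postn Maged1 (0.974) and Rp2 (0.969), and to Tnxb Gdpd2 (0.971) and C1rl (0.969). For Sparc they were Fermt2 (0.962) and Yipf5 (0.961), for Tgfbi Pdzd4 and Zmym3 (both 0.956), and for Thbs3 Gbp3 (0.940) and Mgat3 (0.932). Spp1 was closest to Fads1 and Cyb5b (both 0.938), Thbs2 to A230050P20Rik (0.932) and Ccng2 (0.925), and Tnc to Ccbe1 (0.905) and Cnot1 (0.900).

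Other matricellular genes did not follow a single direction in TGF-beta. Of 36 relatives listed, 30 were tested, and 9 were called higher and 10 lower in TGF-beta against control. Of all genes tested, 19.7% were called higher and 20.5% lower there. Ccn2, a CCN protein long known as a TGF-beta target, rose 5.03-fold (53.2 ± 11.8 CPM in control, n = 5, and 265 ± 61.3 CPM in TGF-beta, SD, n = 4). Mfap5, a microfibril protein, rose 10.9-fold from 1.73 ± 1.75 to 19.1 ± 17.2 CPM. Ccn3, another CCN protein, fell 11.4-fold in TGF-beta from 404 ± 73.1 to 35.4 ± 25.2 CPM (adjusted p 3.65e-05), and Abi3bp fell 9.84-fold. In CM against control 1 relative was called higher (Fbln2, log2 0.67) and 5 lower, where 7.05% and 7.14% of all genes were. Among the 5 were Sparcl1, a relative of Sparc (log2 -2.68, adjusted p 0.0425), and Ccn3 (log2 -1.82, adjusted p 0.0129). With neratinib against CM 1 was called higher and 2 lower, among them Npnt, an integrin alpha8 ligand (log2 -1.05, adjusted p 0.0434). There 10.8% of all genes were called higher and 9.63% lower.

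Receptors rose more often than they fell in TGF-beta. Of 29 listed, 26 were tested, and 14 were called higher and 3 lower, with a median log2 fold change of 0.56. Of all genes tested, 19.7% were called higher and 20.5% lower in TGF-beta. Itgb3, the beta subunit of a receptor for osteopontin and other RGD ligands, rose 14.6-fold from 6.74 ± 2.33 CPM (n = 5) to 94.4 ± 17.7 CPM (SD, n = 4; adjusted p 2.38e-07). Itga5, the fibronectin receptor subunit, rose 3.02-fold (adjusted p 5.67e-07), while Sdc4, a syndecan that binds fibronectin, fell 2.91-fold (adjusted p 1.00e-05). In CM against control 5 receptors were called higher and 1 lower, with Sdc1 at 0.93 (adjusted p 0.0164) and Itgb5 at 0.56 (adjusted p 0.0416). In that comparison 7.05% of all genes were called higher and 7.14% lower. Against CM, 3 receptors were called higher with neratinib and 2 lower, where 10.8% of all genes were called higher and 9.63% lower. Vldlr, a lipoprotein receptor that thrombospondins can bind, rose 5.84-fold from 22.7 ± 3.44 to 133 ± 29.01 CPM (SD, n = 4 each; adjusted p 6.25e-05). Calr, a thrombospondin-binding chaperone, fell by 0.41 on the log2 scale (adjusted p 0.00353).

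The partners, meaning proteases, cross-linkers, latent TGF-beta proteins and collagens, numbered 34, and all were tested. In TGF-beta 15 were called higher and 2 lower, where 19.7% of all genes were called higher and 20.5% lower. Col1a1 rose 4.37-fold and Tgfb1 4.29-fold, while the proteases Adamts1 and Mmp3 fell 6.26-fold and 3.35-fold. In CM 5 were called higher and 6 lower, where 7.05% and 7.14% of all genes were. The collagenase Mmp13 rose 29.7-fold there (1.396 ± 1.24 CPM in control, n = 5, and 35.1 ± 26.8 CPM in CM, SD, n = 4), and the stromelysin Mmp3, which cleaves osteopontin, rose 6.78-fold (32.1 ± 6.58 and 214 ± 48.8 CPM). With neratinib against control 5 were called higher and 17 lower, where 22.2% and 20.9% of all genes were. Against CM 0 were called higher and 4 lower, where 10.8% and 9.63% of all genes were. The 4 included Fap, a fibroblast surface protease (log2 -1.43, adjusted p 0.0281), and Plat (log2 -0.95, adjusted p 0.0110). In CM against TGF-beta the counts called higher and lower were 9 and 10 for relatives, 5 and 10 for receptors and 3 and 14 for partners. Of all genes tested, 17.8% were called higher and 17.5% lower in that comparison. Itgb3 stood at -3.89, Tgfb3 at -2.40 and Mmp13 at 5.37 on the log2 scale.

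**Figure D5:**
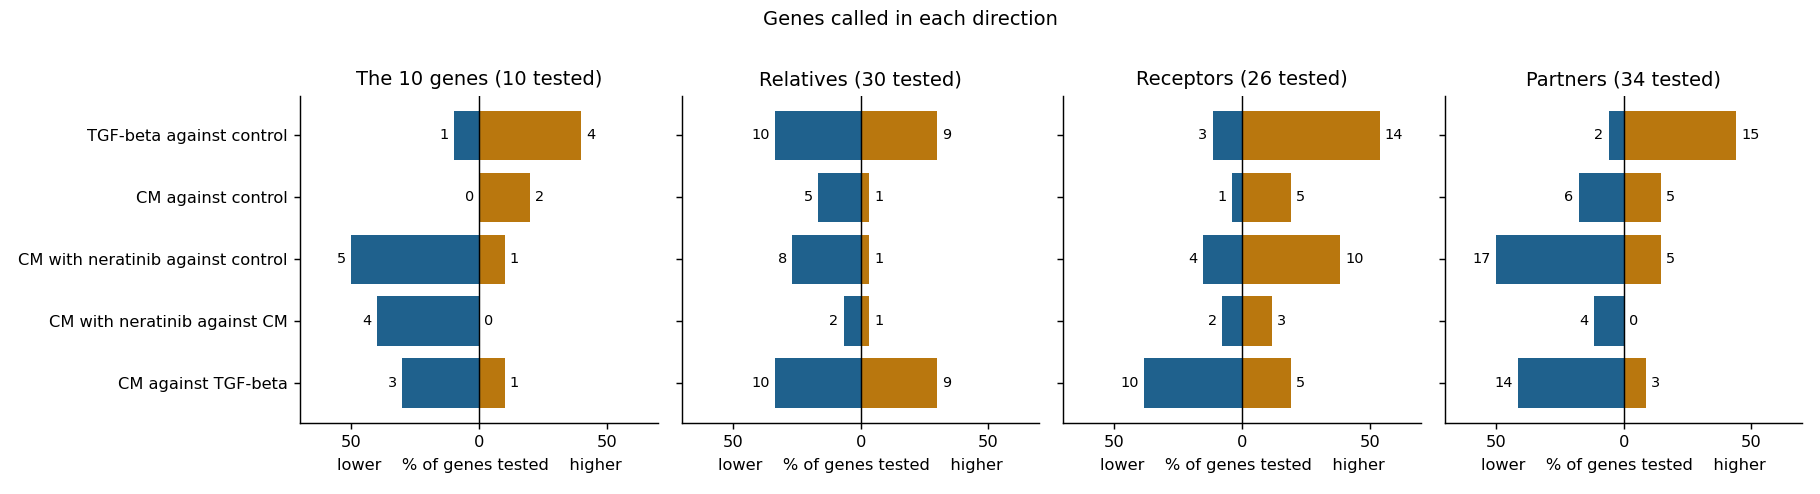
Share of tested genes called higher (right) and lower (left) with edgeR in the 5 comparisons, for the 10 genes and the lists of relatives, receptors and partners; numbers beside the bars are counts. Receptors in TGF-beta against control have 14 called higher and 3 lower, and partners with neratinib against control have 5 higher and 17 lower. Of all genes tested, 19.7% were called higher and 20.5% lower in the former comparison, and 22.2% and 20.9% in the latter.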

How the data were processed

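RNA was sequenced from 17 libraries of pancreatic stellate cells, 1 file per library, and each deposited file holds the expected counts that the authors estimated per Ensembl gene with Salmon 1.4.0, per the submitters' processing notes, which also name DESeq 2 and the build GRCm38 (mm10). The annotation release is not given in the sources used here. Of the values above 0, 74.8% were not whole, and all were rounded, with an effect of at most 308 counts on a total. Of 35896 gene IDs, 35437 had a symbol. Gene positions and exon lengths came from GENCODE M21 on GRCm38, matched by gene ID.

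Groups were taken from the labels. Counts were fitted with edgeR 4.0.16 under R 4.3.3 (quasi-likelihood test, TMM factors, filterByExpr by group with at least 10 counts and 15 in total), tested on simulated data first, with all 17 libraries in a model of group and line. The 95% intervals are for the fitted differences between groups and rest on the spread between libraries. Each SE is the absolute log2 fold change divided by the square root of the F statistic. A limit of 3 counts reflects counting error alone, since reads had no molecular identifiers. The control-against-treatment, line and interaction tests each had p-values adjusted over 13923 genes. Alternatives were DESeq2 1.42.0, other scaling factors, no filter, the block, fewer libraries and leaving out each library. Each of the 10 genes was named. From the lists of relatives, receptors and partners, up to 2 called genes with the largest rise and 2 with the largest fall were eligible, given a group mean of 10 CPM or more. The genes, lists and tests were chosen with earlier results of these data known.

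Per the labels, a replicate number of a line marks a passage shared between groups. After removal of group means, r across genes was above 0.1 in all 22 pairs of libraries that share line and number (median 0.299). It was above 0.1 in 14 of 32 pairs of the same line and another number, which include the libraries labelled PSC4 replicate 1. In CM and neratinib the number also goes with the medium code, and what makes such libraries alike was not tested. The main model has no term for these pairs. In TGF-beta against control it called 40.2% of all genes, and the block called 50.9%.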

Additional observations from a re-analysis of the deposited data

Results flagged for a closer look

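In 4 of the 40 combinations of gene and group, 1 library lay far from the rest of its group by Dixon's criterion, which chance meets in about 1 of 20 groups. Postn in the TGF-beta library of PSC5 replicate 2 was 1126 CPM, and the nearest of the others was 2410.4 CPM. Sparc in the TGF-beta library of PSC5 replicate 1 was 4102 CPM, and the nearest was 2778 CPM. The other two came from the CM library of PSC4 replicate 2, where Tgfbi was 269 CPM (nearest 119 CPM) and Fn1 was 2480 CPM (nearest 3485 CPM). That library is the one CM library of PSC4 besides the one labelled replicate 1.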

How the results depend on the processing

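Of 1060 values of the 10 genes recomputed under the alternatives, 949 kept their direction and side of the threshold, 35 lost the call, 53 gained it and 23 changed sign. The rises of Tnc, Sparc, Spp1 and Fn1 and the fall of Tnxb in TGF-beta were called under all 17 alternatives. The number of genes called in CM against control was 2 and became 4 with only the groups compared (20.6% of all genes called) and 4 without the 3 libraries labelled PSC4 replicate 1. With neratinib against CM it was 4 and became 1 (4.54% of all genes) and 2 under the same settings. Between PSC5 and PSC4 it was 0 and became 3 with DESeq2, 5 with those 3 libraries removed and 4 with them counted as PSC5 (43.4% of all genes). Leaving out 1 library gave 5 to 5 genes in TGF-beta against control, 1 to 3 in CM against control, 4 to 7 with neratinib against control, 1 to 4 with neratinib against CM, 4 to 5 in CM against TGF-beta and 0 to 3 between the lines. The count of 1 with neratinib against CM came without neratinib PSC5 replicate 2 (12.4% of all genes). It was 2 without CM PSC4 replicate 1 (12.6%) or CM PSC5 replicate 1 (16.2%). It was also 2 without neratinib PSC4 replicate 1 (14.3%) or neratinib PSC4 replicate 2 (19.0%). The count of 3 in CM against control came without CM PSC4 replicate 1 (9.78%). That of 1 came without CM PSC4 replicate 2 (9.01%) or CM PSC5 replicate 1 (5.68%). The line count was 3 without control or CM PSC4 replicate 1 (17.3% and 16.6% of all genes) and 2 without neratinib PSC4 replicate 1 (21.7%).

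Sign changes occurred where the difference was near 0. In TGF-beta against control, Thbs2 was -0.0401 with upper-quartile factors, -0.076 with the replicate block, -0.0430 with the 3 libraries removed, -0.0227 with them counted as PSC5 and -0.111 to 0.148 with 1 library left out. Tgfbi was -0.0258, -0.213, -0.125, -0.0889 and -0.130 to 0.205 under the same settings. With 1 library left out, Thbs1 was -0.0439 to 0.171 in CM against TGF-beta and -0.257 to 0.0611 between the lines, Sparc was -0.0445 to 0.200 in CM against control, and Tnxb was -0.252 to 0.206 with neratinib against CM. The replicate block changed no call of a gene beyond those given above. Depth did not limit the 10 genes, whose lowest value was 12 counts (Tnxb in TGF-beta PSC5 replicate 2).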
